A study of Homo sapiens with 6 samples.

Results

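The interleukin and chemokine genes examined here were 10 secreted signals of glioma cells, IL6, CXCL8, CXCL1, CXCL2, CXCL3, LIF, IL11, CCL2, IL1A and IL1B. They were taken by symbol, and each matched 1 Ensembl identifier among the 61496 features of the deposited tables. The libraries came from U251, an established human glioma cell line, with 3 control libraries from untreated cultures and 3 after exposure for 2 h to sevoflurane (Sev), a volatile anesthetic. The labels give no concentration for the single library. The protocol lists 5.1%, 3.4% and 1.7%, and the legend of the study's volcano plot names 5.1%. All libraries were of 1 line grown in the same medium with serum, and the labels do not say whether the replicates were separate cultures. The study's statistics refer to independent experiments without naming the sequencing libraries, so that the p-values measure the spread between these libraries, which may be technical.

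Interleukins and chemokines are small secreted proteins through which cells signal to each other and recruit immune cells. CXCL1, CXCL2, CXCL3 and CXCL8 attract neutrophils through the receptors CXCR1 and CXCR2, and CCL2 attracts monocytes through CCR2. IL6, IL11 and LIF signal through receptor complexes that share the subunit gp130, the product of IL6ST, and activate STAT3. IL1A and IL1B act through IL1R1 and drive NF-kB, a transcription factor that in turn drives many of these genes. Glioma cells are known to make several of them, which act on the tumor cells and on the macrophages around them.

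Among the 10 genes, those for the neutrophil chemokines had the largest changes after Sev. CXCL8 was 12.4-fold higher, CXCL3 6.12-fold and CXCL2 3.29-fold, and IL11 was 2.21-fold higher. The change of IL6 was small, at 1.27-fold. LIF, IL1B, CCL2 and IL1A did not pass the test, and CXCL1 had 1 count in all 6 libraries together.

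The depth was 38624292 to 46318311 counts per library. Levels are given as CPM, counts scaled to a common library size with edgeR's TMM factors, and as the deposited FPKM, which is per length of the gene and serves to compare genes. Of the 10 genes, 9 passed the expression filter, each with at least 26 counts in every library. Fold changes are those of edgeR's quasi-likelihood test, and called means a Benjamini-Hochberg adjusted p-value under 0.05 over all 27514 tested features. By this rule 5 of the 9 genes were higher in Sev, where 22.1% of all tested features were, and 0 were lower, where 21.5% of all tested features were. DESeq2's Wald test also called 0 of them lower, and edgeR gave an unadjusted p-value under 0.05 to none of the genes with a negative change. With the threshold of the study's methods, a log2 fold change over 1 or under −1 and an unadjusted p-value under 0.05, 4 were higher, against 11.4% of all tested features and 23.5% in either direction. Among the 15189 tested protein-coding genes 25.0% were called higher and 21.0% lower, and 9.07% and 7.62% passed the study's threshold upward and downward. The CPM values of the groups did not overlap for 5 of the 9, against 56.5% of all tested features. The median log2 fold change of the 9 was 0.44, and that of all tested features was −0.0056. In bulk libraries, fewer cells that express a gene and less RNA per cell cannot be told apart.

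The plot of FPKM by library shows the deposited values, and the plot of log2 fold changes shows the fitted changes with their intervals.

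**Figure D1:**
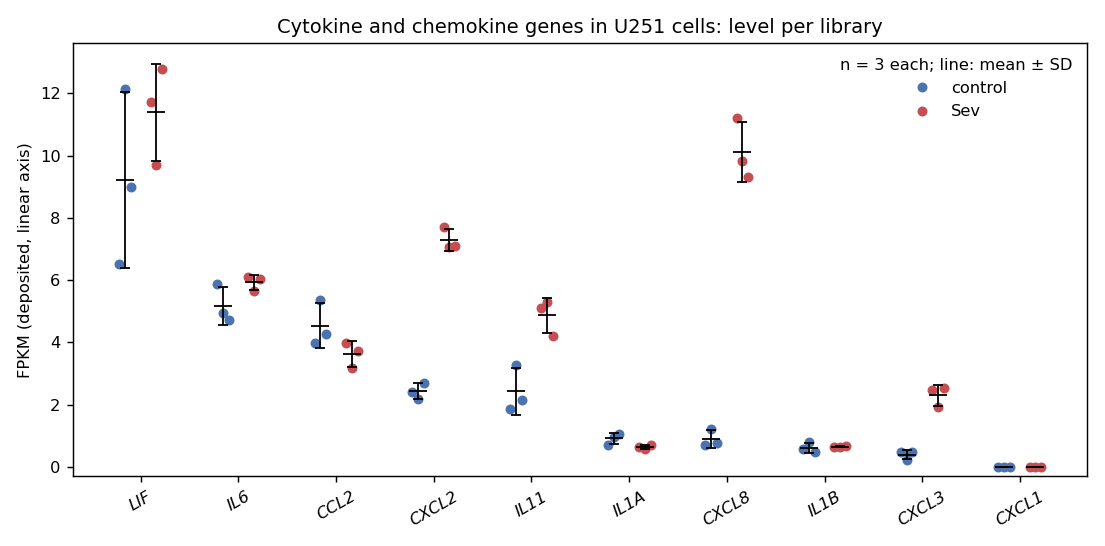
Deposited FPKM (linear vertical axis) of the 10 genes in the 3 control (blue) and 3 Sev (red) libraries, ordered by the control mean, with points for libraries and black lines for the mean ± SD. CXCL8 goes from 0.695 to 1.21 FPKM in control cells to between 9.32 and 11.2 FPKM in Sev-treated cells, while the groups of LIF, IL6, CCL2 and IL1B overlap.

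**Figure D2:**
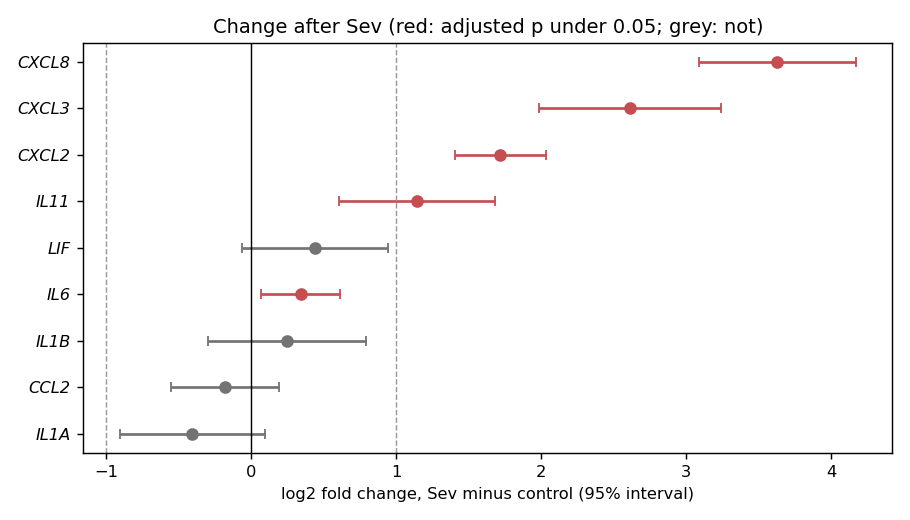
Log2 fold change of the 9 tested genes, Sev minus control, with 95% intervals from edgeR's quasi-likelihood fit (red where the adjusted p-value was under 0.05, grey where not), and dashed lines at 1 and −1. The intervals of CXCL8, CXCL3 and CXCL2 lie wholly above 1, and those of LIF, IL1B, CCL2 and IL1A cross 0.

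The starting sequences are shown first, since CXCL1, CXCL2 and CXCL3 are related genes with unlike levels here. RefSeq start sites (GRCh38.p14) were found for 8 of the 10 genes, all but LIF and CCL2. The 150 bases before the start of 6 genes are given on the strand of the gene, 5′ to 3′. The windows of IL1A and IL1B, which were not called higher in Sev, were searched as well but are not shown. Capitals mark GGAATTTCC, a kappaB-type element, the NF-kB consensus, and TGANTCA, the AP-1 element, each searched on both strands. GGAATTTCC was chosen after the sequences were seen, and it lies within the NF-kB consensus matches of CXCL1, CXCL2 and CXCL3.
CXCL8: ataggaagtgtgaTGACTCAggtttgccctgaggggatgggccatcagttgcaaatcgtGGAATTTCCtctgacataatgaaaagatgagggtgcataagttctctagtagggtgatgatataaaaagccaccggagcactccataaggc
CXCL1: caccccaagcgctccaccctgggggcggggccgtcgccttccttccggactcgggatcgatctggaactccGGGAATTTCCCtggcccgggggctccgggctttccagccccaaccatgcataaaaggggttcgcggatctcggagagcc
CXCL2: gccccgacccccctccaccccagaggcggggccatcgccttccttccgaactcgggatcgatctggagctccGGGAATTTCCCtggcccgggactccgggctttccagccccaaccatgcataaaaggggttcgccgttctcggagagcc
CXCL3: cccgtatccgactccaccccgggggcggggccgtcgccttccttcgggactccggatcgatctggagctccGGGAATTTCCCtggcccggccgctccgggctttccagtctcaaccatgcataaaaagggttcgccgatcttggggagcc
IL11: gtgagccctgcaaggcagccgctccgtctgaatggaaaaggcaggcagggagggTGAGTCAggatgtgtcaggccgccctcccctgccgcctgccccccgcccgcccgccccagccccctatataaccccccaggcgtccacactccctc
IL6: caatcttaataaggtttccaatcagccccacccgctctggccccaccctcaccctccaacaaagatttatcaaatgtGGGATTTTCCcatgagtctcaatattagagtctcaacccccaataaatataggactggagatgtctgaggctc

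These windows are chr4:73740419-73740568 (plus strand), chr4:73869243-73869392 (plus), chr4:74099196-74099345 (minus), chr4:74038690-74038839 (minus), chr19:55370464-55370613 (minus) and chr7:22727050-22727199 (plus), in the same order. GGAATTTCC was found in the windows of CXCL8, CXCL1, CXCL2 and CXCL3, and in 0.253% of 35116 RefSeq windows of the same length. TGANTCA was found before CXCL8, IL11 and IL1A, and in 4.17% of all windows. The NF-kB consensus was found before IL6, CXCL1, CXCL2 and CXCL3, and in 6.19% of all windows. The window of IL1B held none of these elements. In pairwise global alignments with gaps, CXCL1 and CXCL2 were identical at 134, CXCL1 and CXCL3 at 133 and CXCL2 and CXCL3 at 130 of 149 aligned bases. A match is only a match of letters, and no binding was measured.

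CXCL8 (ENSG00000169429, chromosome 4, 73740506 to 73743716, GRCh38, plus strand) encodes interleukin 8, the main neutrophil attractant among these genes. It had 76, 130 and 101 counts in the control libraries and 1226, 1111 and 1040 counts in the Sev libraries. Each Sev library was above each control library by a wide margin. Its mean was 2.39 ± 0.788 CPM without Sev and 29.5 ± 3.15 CPM with it (SD, n = 3 each), a change of 3.63 ± 0.23 (SE) on the log2 scale (edgeR, adjusted p = 7.6e-05). The 95% interval of the fold ran from 8.51 to 18.0.

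CXCL3 (ENSG00000163734, chromosome 4, 74036589 to 74038807, minus strand) encodes a further ligand of CXCR2. It had 54, 26 and 64 counts in control cells and 268, 217 and 283 counts in Sev-treated cells, and the groups did not overlap. CPM rose from 1.08 ± 0.371 to 6.68 ± 0.782 (SD, n = 3 each), a change of 2.61 ± 0.27 (SE) on the log2 scale (edgeR, adjusted p = 0.000372). CXCL2 (ENSG00000081041, chromosome 4, 74097035 to 74099293, minus strand), whose protein also binds CXCR2, had 165, 147 and 217 counts in control cells and 527, 501 and 494 counts in Sev-treated cells. The lowest Sev library was above the highest control library for this gene as well. CPM rose from 4.03 ± 0.395 to 13.3 ± 0.763 (SD, n = 3 each), a change of 1.72 ± 0.14 (SE) on the log2 scale (edgeR, adjusted p = 0.000146).

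CXCL1 (ENSG00000163739, chromosome 4, 73869393 to 73871242, plus strand) encodes the remaining CXCR2 ligand of the group. It had 0 counts in every control library, 0 in Sev replicates 1 and 3, and 1 in Sev replicate 2, and it was not tested. A count of 0 allows up to 3 counts in a library by counting error, so that expression of CXCL1 was not detectable at this depth. Reads of related genes can be split in counting. Of the 50-base stretches of the CXCL1 transcripts in GENCODE 29, 5.73% also occur in CXCL2 or CXCL3 transcripts and none of the 150-base stretches, the length of each read per the study's methods, do. For CXCL2 and CXCL3 the shares at 50 bases were 9.24% and 5.26%.

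CXCL8 and CXCL2 stand at the ends of a cluster of chemokine genes on chromosome 4, with CXCL3 beside CXCL2. Between CXCL8 and CXCL3 lie the genes of the chemokines CXCL6, PF4V1, CXCL1, PF4, PPBP and CXCL5. CXCL6, PF4, PPBP and CXCL5 had 0 counts in all 6 libraries, and PF4V1 had 4 counts in control replicate 1 and 0 elsewhere. The counts of the cluster thus lay in CXCL8, CXCL3 and CXCL2, and these same genes were called higher in Sev.

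**Figure D3:**
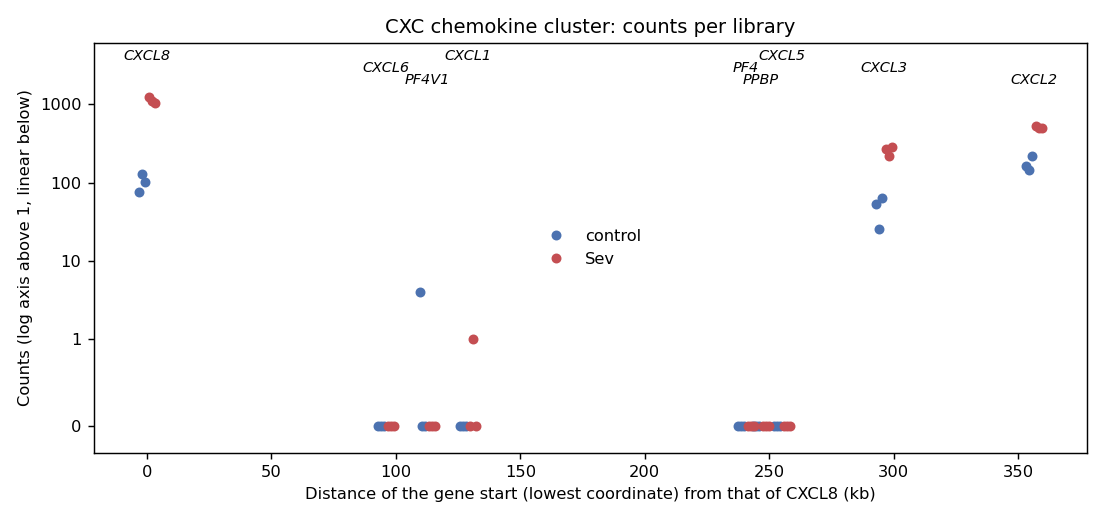
Counts per library (vertical axis, log above 1 and linear below) of the protein-coding chemokine genes of the cluster, against the distance of each gene's lowest coordinate from that of CXCL8 in kb; blue is control and red is Sev, 3 libraries each, drawn slightly side by side. CXCL8 at 0 kb, CXCL3 at 296 kb and CXCL2 at 357 kb hold 26 to 1226 counts, and the genes between them hold at most 4.

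The neutrophil chemokines were also compared with each other. Ratios of counts within a library carry no scaling between libraries. CXCL8 to CXCL2 was 0.461, 0.884 and 0.465 without Sev and 2.33, 2.22 and 2.11 with it. CXCL2 to CXCL3 was 3.06, 5.65 and 3.39 in control cells and 1.97, 2.31 and 1.75 in Sev-treated cells. Neither ratio overlapped between the groups. With 3 libraries against 3, the exact permutation test gave p = 0.1, the smallest p-value this design allows, for both ratios and for the other 4 ratios computed (adjusted p = 0.1, two-sided).

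CCL2 (ENSG00000108691, chromosome 17, 34255218 to 34257203, plus strand), the monocyte attractant, did not pass the test. It had 387, 506 and 487 counts in control cells and 388, 320 and 370 counts in Sev-treated cells. CPM was 10.7 ± 1.89 and 9.39 ± 0.893 (SD, n = 3 each), and the groups overlapped. The log2 fold change was −0.18 (95% interval −0.56 to 0.19, adjusted p = 0.393, edgeR). CXCL8 to CCL2 went from 0.196, 0.257 and 0.207 in control cells to 3.16, 3.47 and 2.81 in Sev-treated cells.

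Of the cytokines that share gp130, IL11 and IL6 were called higher and LIF was not. IL11 (ENSG00000095752, chromosome 19, 55364389 to 55370463, minus strand), known in tumors and in bone, had 244, 417 and 332 counts in control cells and 669, 717 and 563 counts in Sev-treated cells. The groups did not overlap. CPM was 7.71 ± 2.50 and 17.0 ± 2.52 (SD, n = 3 each), a change of 1.14 ± 0.23 (SE) on the log2 scale (edgeR, adjusted p = 0.00598). Without control replicate 1 the log2 fold change was 0.96, under the study's limit of 1, and the call at an adjusted p-value under 0.05 remained (adjusted p = 0.0205).

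IL6 (ENSG00000136244, chromosome 7, 22725884 to 22732002, plus strand), the founding member of the gp130 cytokines, had 592, 488 and 561 counts in control cells and 619, 593 and 623 counts in Sev-treated cells. On the CPM scale the groups were apart, with 12.6 ± 1.25 and 16 ± 0.393 (SD, n = 3 each). On the deposited FPKM they overlapped, with 5.86, 4.96 and 4.71 in control cells and 6.11, 5.65 and 6.03 in Sev-treated cells. On the log2 scale the change was 0.34 ± 0.12 (SE; edgeR, adjusted p = 0.0463). This call was lost in 11 of 15 other settings, with adjusted p-values from 0.0369 to 0.245. With edgeR, the adjusted p-value was 0.112 when control replicate 2 was left out, 0.16 for control replicate 3, 0.125 for Sev replicate 1, 0.0687 for Sev replicate 2 and 0.076 for Sev replicate 3. IL6 overlaps STEAP1B, with 79 to 152 counts, and IL6-AS1, with 63 to 100 counts, both on the opposite strand. The libraries were strand-specific, but whether the counting used the strand is not stated.

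LIF (ENSG00000128342, chromosome 22, 30240447 to 30246851, minus strand), leukemia inhibitory factor, had the highest mean FPKM of the 10 genes in both groups, although CXCL8 was above it in Sev replicate 2, at 9.82 against 9.70 FPKM. It had 1231, 2236 and 1996 counts in control cells and 2219, 1899 and 2466 counts in Sev-treated cells. Control replicate 1 was the lowest of the 6 libraries, and the groups overlapped. CPM was 42.2 ± 13.7 and 57.2 ± 6.03 (SD, n = 3 each), with a log2 fold change of 0.44 (95% interval −0.065 to 0.94, adjusted p = 0.139, edgeR). Without control replicate 2 the change was 0.70 and passed the test (adjusted p = 0.0215, edgeR), and without control replicate 1 it was 0.22. LIF overlaps LIF-AS1, with 6, 8 and 7 counts in control cells and 20, 12 and 17 in Sev-treated cells, and LIF-AS2, with 32, 61 and 83 counts and 127, 77 and 99 counts, both on the opposite strand. LIF-AS2 was called higher in Sev, with a log2 fold change of 0.98 (edgeR, adjusted p = 0.0453). LIF-AS1, with a log2 fold change of 1.38, had under 10 counts in each control library. It passed the expression filter through the Sev group alone, so that nothing is read from its call. The part of LIF-AS1 and LIF-AS2 in the values of LIF was not tested. Over the 6 libraries, the non-member genes with log2 CPM values most like those of LIF were MCM6, ACTR2 and EIF4BP3, each with a Pearson's r of 0.99, as a description of a pattern that 446 of 20877 genes shared at r over 0.9.

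IL1A and IL1B, the interleukin 1 genes, were among the weakest of the 10 and did not pass the test. IL1A (ENSG00000115008, chromosome 2, 112773915 to 112784590, minus strand) had 75, 99 and 130 counts in control cells and 65, 62 and 74 counts in Sev-treated cells. CPM was 2.32 ± 0.479 and 1.75 ± 0.111 (SD, n = 3 each). The Sev libraries were close together, and the highest of them was above the lowest control library in CPM, while in FPKM, at 0.699 against 0.722, it was below. The log2 fold change was −0.41 (95% interval −0.91 to 0.093, adjusted p = 0.163, edgeR).

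IL1B (ENSG00000125538, chromosome 2, 112829751 to 112836903, minus strand) had 86, 117 and 82 counts in control cells and 99, 102 and 101 counts in Sev-treated cells. CPM was 2.23 ± 0.653 and 2.63 ± 0.0827 (SD, n = 3 each), and the Sev libraries fell within the range of the control libraries. The log2 fold change was 0.24 (95% interval −0.30 to 0.79, adjusted p = 0.429, edgeR). IL1A to IL1B was 0.872, 0.846 and 1.59 in control cells and 0.657, 0.608 and 0.733 in Sev-treated cells.

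The order of the genes by level, taken on the FPKM scale, differed between the groups. In control cells LIF was highest at 9.22 ± 2.82 FPKM, followed by IL6 at 5.18 ± 0.607, CCL2 at 4.54 ± 0.725, CXCL2 at 2.43 ± 0.252 and IL11 at 2.43 ± 0.744 (SD, n = 3 each). Below them stood IL1A at 0.920 ± 0.177, CXCL8 at 0.896 ± 0.278, IL1B at 0.616 ± 0.170 and CXCL3 at 0.399 ± 0.143 FPKM. The libraries of IL6 and CCL2 overlapped, as did those of CXCL2 and IL11, and those of IL1A, CXCL8, IL1B and CXCL3, each with the next.

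In Sev-treated cells LIF at 11.4 ± 1.56 FPKM and CXCL8 at 10.1 ± 0.978 overlapped at the top (SD, n = 3 each). CXCL2 followed at 7.29 ± 0.360, IL6 at 5.93 ± 0.242, IL11 at 4.87 ± 0.577, CCL2 at 3.63 ± 0.413 and CXCL3 at 2.31 ± 0.340 FPKM, each apart from the next. IL1B at 0.652 ± 0.0106 and IL1A at 0.632 ± 0.0643 FPKM overlapped with each other. CXCL1 was last in both groups, listed at 0 in all libraries but Sev replicate 2, at 0.0106 FPKM. CXCL8 thus went from position 7 of the 10 genes to position 2. The summed FPKM of the 10 genes ranged over libraries from 23.1 to 31.2 without Sev and from 43.9 to 49.6 with it, and CXCL8 took 3.01% to 3.89% of it in control cells and 19.8% to 22.6% in Sev-treated cells.

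Receptors and decoys of these cytokines were described from a list of 14 genes, of which 8 passed the expression filter, with 2 higher and 1 lower in Sev, against 22.1% and 21.5% of all tested features. With a minimum of 10 counts in every library, and in both filtered FPKM fits, 1 gene of the list was called. It need not be the same gene, since the filtered FPKM fits kept IL1R2, at 0.635 to 1.03 FPKM in the Sev libraries. IL1R2 reached 10 counts in every library only in the Sev group, and ACKR2 only in the control group. They passed the expression filter through the group where they were high, so that nothing is read from their part in the count, and both are left out by the minimum of 10 counts. IL1R2, a decoy receptor that binds interleukin 1 without signaling, had 0, 3 and 0 counts in control cells and 105, 98 and 154 counts in Sev-treated cells. Scaled by library size with the TMM factors, the ratio of the summed counts was 135. Its exact (Clopper-Pearson) 95% counting interval was 45.9 to 659, which covers counting error only. Without control replicate 2, which held all control counts, IL1R2 was at least 47.1-fold higher on the same scale. That ratio was set against a floor of 3 counts in each of the other control libraries.

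ACKR2, a scavenger that takes up CC chemokines such as CCL2, had 58, 32 and 38 counts in control cells and 12, 4 and 12 counts in Sev-treated cells, a change of −2.01 ± 0.45 (SE) on the log2 scale. LIFR, the receptor chain for LIF, was higher in Sev, at 25.2 ± 7.51 and 42.6 ± 3.20 CPM (SD, n = 3 each), a change of 0.75 on the log2 scale (edgeR, adjusted p = 0.0221). Without Sev replicate 1 it was 0.70 and no longer called (edgeR, adjusted p = 0.0663), nor was it called with library size in place of TMM. The shared subunit IL6ST had the highest mean FPKM of the list in both groups. OSMR was above it in control replicate 1 and Sev replicate 2. IL6ST did not pass the test, with 167 ± 24.2 CPM before and 158 ± 4.96 CPM after Sev (SD, n = 3 each). OSMR, which pairs with gp130 for oncostatin M, had log2 fold changes of −0.053, and 0.020 without Sev replicate 3.

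IL1R1, the signaling receptor of interleukin 1, had 148, 99 and 155 counts in control cells and 70, 97 and 286 counts in Sev-treated cells. Sev replicate 3 was the highest of the 6 libraries, and the log2 fold change of 0.34 (adjusted p = 0.579, edgeR) turned to −0.46 without it. Its partner IL1RAP had a log2 fold change of 0.26 (adjusted p = 0.179), and passed the test only without Sev replicate 3 (log2 fold change 0.41, adjusted p = 0.0216, edgeR). IL6R had 89 to 380 counts in control cells and 67 to 213 in Sev-treated cells, and its log2 fold change of −0.42 (adjusted p = 0.570, edgeR) turned to 0.36 without control replicate 3. The receptors of the neutrophil chemokines, CXCR1 and CXCR2, had at most 7 counts in a library and were not tested, as were IL11RA and IL1RN, the gene of the interleukin 1 receptor antagonist. CCR2 and ACKR1 had 0 counts in all 6 libraries, which allows up to 3 counts in each.

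**Figure D4:**
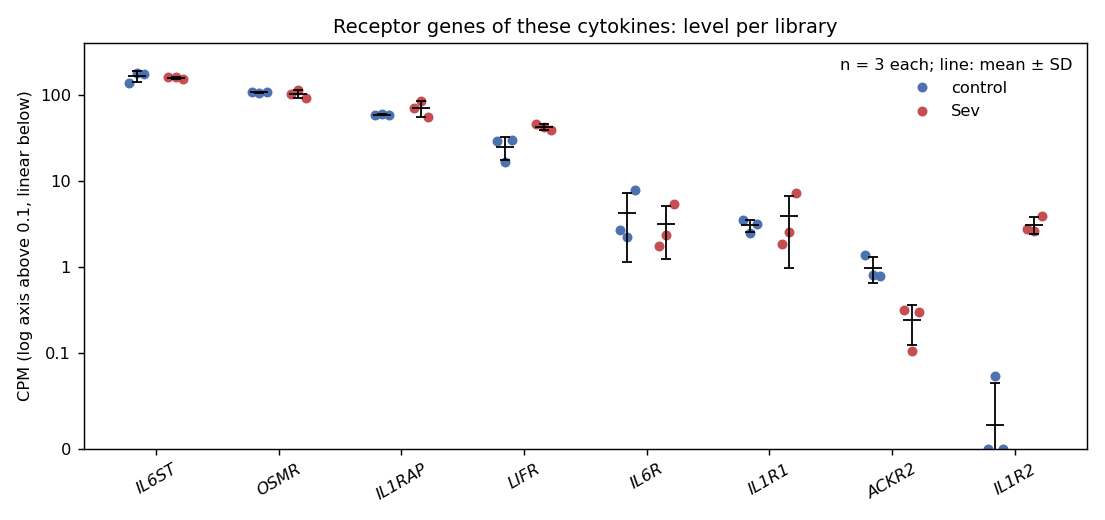
CPM (vertical axis, log above 0.1 and linear below) of the 8 tested receptor genes in the 3 control (blue) and 3 Sev (red) libraries, with black lines for the mean ± SD. IL1R2 goes from near 0 to 3.09 ± 0.693 CPM and ACKR2 from 0.987 ± 0.333 to 0.243 ± 0.118 CPM, while IL6ST and OSMR stay above 90 CPM in all libraries.

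Most other interleukins and chemokines were too weak to be tested. Of 37 other interleukins, 11 were tested, with 4 higher and 0 lower in Sev, against 22.1% and 21.5% of all tested features, and their median log2 fold change was 0.64. The number called was 7 without control replicate 2 or without Sev replicate 2, and 8 with DESeq2, without the expression filter and in the unfiltered FPKM fit. IL18, a relative of IL1B, was the highest of them in FPKM and rose from 48.5 ± 1.01 to 80.0 ± 2.81 CPM (SD, n = 3 each), or by 0.72 on the log2 scale (edgeR, adjusted p = 0.000367). IL32, which is named an interleukin but resembles no other, rose from 20, 29 and 19 counts to 117, 103 and 200, and IL17D from 30, 43 and 37 counts to 88, 113 and 121. Of 38 other chemokines, 6 were tested, with 1 higher and 2 lower, against the same shares, and 2 were called with a minimum of 10 counts in every library. CCL26, an eosinophil attractant, had 22, 30 and 33 counts in control cells and 91, 107 and 51 in Sev-treated cells and was higher (log2 fold change 1.74, adjusted p = 0.00483, edgeR). CXCL14 fell from 144 ± 26.0 to 91.9 ± 13 CPM, and CXCL17, which reached 10 counts in every library only in the control group, had 51, 33 and 66 counts there and 7, 14 and 11 with Sev, so that nothing is read from its part in the count.

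Of 12 further cytokines, 8 were tested, with 4 higher and 1 lower, against 22.1% and 21.5% of all tested features, and 2 were called in both filtered FPKM fits. CLCF1, a relative of IL6 and LIF that acts through gp130, rose from 13.1 ± 0.145 to 18.8 ± 0.872 CPM (SD, n = 3 each; log2 fold change 0.52, adjusted p = 0.00489, edgeR). OSM, oncostatin M, had 3, 4 and 3 counts in control cells and 11, 13 and 22 in Sev-treated cells. Scaled by library size with the TMM factors, the ratio of the summed counts was 5.23, with an exact counting interval of 2.60 to 11.6. OSM passed the filter through the Sev group alone, so that nothing is read from its part in the count. KITLG, the ligand of the receptor KIT, was also higher, with a log2 fold change of 0.75 (adjusted p = 0.0121, edgeR). CSF1, which sustains macrophages, was lower, at 117 ± 17.4 and 72.4 ± 6.08 CPM, or −0.69 on the log2 scale (edgeR, adjusted p = 0.00327).

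The lists of signaling genes moved in both directions. Beside their counts stand the 22.1% of all tested features called higher, the 21.5% called lower and the 43.7% called in either direction. Of 16 JAK-STAT genes, 5 were higher and 3 were lower, with a median log2 fold change of −0.029. PTPN6, a phosphatase of cytokine receptors, rose from 25, 14 and 28 counts to 73, 75 and 108 counts, and PIM1, a kinase induced by STAT factors, rose from 46.0 ± 2.59 to 92.9 ± 23.7 CPM. PTPN11, a phosphatase that binds gp130, rose with a log2 fold change of 0.42 (adjusted p = 0.00584, edgeR). BCL3 fell from 19.1 ± 2.74 to 5.12 ± 1.56 CPM (log2 fold change −1.9, adjusted p = 0.000699), and STAT5B fell with a log2 fold change of −0.47. STAT3 itself, at 326 ± 12.3 and 321 ± 23.7 CPM, did not pass the test (adjusted p = 0.841). CISH, a feedback inhibitor, had a log2 fold change of −0.74 (adjusted p = 0.0221), which did not pass when control replicate 1 (0.0646), control replicate 3 (0.061) or Sev replicate 2 (0.0534) was left out.

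Of 14 IL-1 signaling genes, 13 were tested, with 5 higher and 2 lower and a median log2 fold change of 0.022. IRAK2, a kinase-like adaptor of the receptor, rose from 8.08 ± 0.268 to 15.9 ± 1.84 CPM, and IRAK1 from 272 ± 49.4 to 465 ± 21.6 CPM (SD, n = 3 each). TAB3, which links these adaptors to the next kinase, rose with a log2 fold change of 0.59. IKBKB, the kinase that releases NF-kB, was lower, at 60.2 ± 1.5 and 32.2 ± 1.83 CPM, or −0.90 on the log2 scale (edgeR, adjusted p = 0.00024). TAB1 had a log2 fold change of −0.38 (adjusted p = 0.0232), and did not pass when any library but Sev replicate 2 was left out, with adjusted p-values up to 0.0874 over these 5 fits (edgeR).

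Of 11 NF-kB subunits and inhibitors, 5 were higher and 2 were lower, with a median log2 fold change of 0.43. Without control replicate 2 or without control replicate 3, 4 were called. Those that rose were the subunits NFKB1 and RELA, with log2 fold changes of 0.54 and 0.44 (edgeR, adjusted p = 0.00622 and 0.0414), and the inhibitors NFKBIA, NFKBIB and TNFAIP3, while the inhibitors NFKBIE and TNIP1 did not pass the test. The calls of NFKBIA, NFKBIB and TNFAIP3 held whichever library was left out (edgeR). The call of NFKB1, of RELA or of both was lost in each fit without control replicate 2 or 3. NFKBIA rose from 9.01 ± 1.32 to 17.8 ± 3.47 CPM, NFKBIB from 11.8 ± 1.29 to 22.1 ± 2.05 CPM and TNFAIP3 from 8.01 ± 0.357 to 17.9 ± 4.75 CPM (SD, n = 3 each). The calls of NFKB2 (log2 fold change −0.38) and NFKBIZ (−0.32) did not hold up. That of NFKBIZ was lost whichever of the 6 libraries was dropped (adjusted p from 0.0514 to 0.104, edgeR). That of NFKB2 was lost in 4 of them, without control replicates 2 or 3 or Sev replicates 1 or 3 (adjusted p up to 0.0958, edgeR). Of 13 further NF-kB targets, 10 were tested, with 3 higher and 1 lower. The number called was 2 without control replicate 1 and 1 without control replicate 3, and from 0 to 2 in the FPKM fits. PTX3, a secreted pentraxin, rose from 30, 20 and 44 counts to 51, 57 and 95 counts. BIRC3 (log2 fold change 0.75) lost its call without control replicate 1 (adjusted p = 0.0525, edgeR) or control replicate 3 (0.0668). IER3 had 112, 87 and 116 counts in control cells and 300, 750 and 140 in Sev-treated cells, and lost its call when control replicate 1, 2 or 3 was left out (adjusted p from 0.0532 to 0.0556, edgeR). TRAF1 (log2 fold change −0.91) lost its call when any library but control replicate 1 was left out (adjusted p up to 0.135, edgeR).

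Among 16 transcription factors known at cytokine promoters, 6 were higher and 5 were lower, against 22.1% and 21.5% of all tested features, and 7 were called in the unfiltered FPKM fit. FOSL1, a subunit of AP-1, had 573, 756 and 790 counts in control cells and 3141, 3643 and 3120 in Sev-treated cells, a change of 2.41 ± 0.15 (SE) on the log2 scale (edgeR, adjusted p = 6.67e-05). This was the largest change of the list, and the groups were far apart. ATF4 and ATF3, stress-responsive factors of the same superfamily, rose with log2 fold changes of 1.08 and 0.71. FOS fell from 564 ± 38.1 to 400 ± 49.2 CPM (SD, n = 3 each), CREB1 fell with a log2 fold change of −0.91 and SP1 with −0.65.

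Among 13 regulators of cytokine mRNA stability and translation, 7 were higher and 3 were lower, against 22.1% and 21.5% of all tested features. ZC3H12A, an RNase that cuts mRNAs such as that of IL6, had 942, 820 and 1003 counts in control cells and 2868, 4532 and 2308 in Sev-treated cells, a change of 2.0 ± 0.24 (SE) on the log2 scale (edgeR, adjusted p = 0.000674). ARID5A, which protects the IL6 mRNA, rose from 4.48 ± 0.782 to 12.0 ± 1.84 CPM, and KHSRP, which promotes decay, from 194 ± 21.7 to 354 ± 15.4 CPM (SD, n = 3 each). ZFP36L1, a decay factor that binds AU-rich elements, fell from 201 ± 11.6 to 123 ± 16.9 CPM, and TIA1, a translational silencer, with a log2 fold change of −0.65. RC3H2 (log2 fold change −0.37) lost its call without control replicate 3 (adjusted p = 0.0639, edgeR) or Sev replicate 1 (0.0661). The AU-rich nonamer TTATTTATT was counted in the longest annotated 3′ UTR of each gene (GENCODE 29). It was found in 7 of the 10 cytokine and chemokine genes, against 8.16% of 19129 protein-coding genes. IL11 held 6 copies, CXCL2 held 5, CXCL1 held 3, LIF and IL1B held 2, and CXCL8 and CXCL3 held 1, while IL6, CCL2 and IL1A held 0.

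Genes for the processing and release of interleukin 1 gave 5 higher and 0 lower of 9 tested, against 22.1% and 21.5% of all tested features, and 3 called in both filtered FPKM fits. CAPN2, a calpain protease, rose from 242 ± 8.40 to 398 ± 13.5 CPM (SD, n = 3 each). NLRP3, the sensor of an inflammasome, rose from 31, 11 and 25 counts to 124, 115 and 108 counts, and PYCARD, its adaptor, from 51, 41 and 62 counts to 115, 124 and 150 counts. CASP1, the protease that cuts the IL1B precursor, did not pass the test, with 0.586 ± 0.152 CPM before and 0.367 ± 0.0786 CPM after Sev (SD, n = 3 each).

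**Figure D5:**
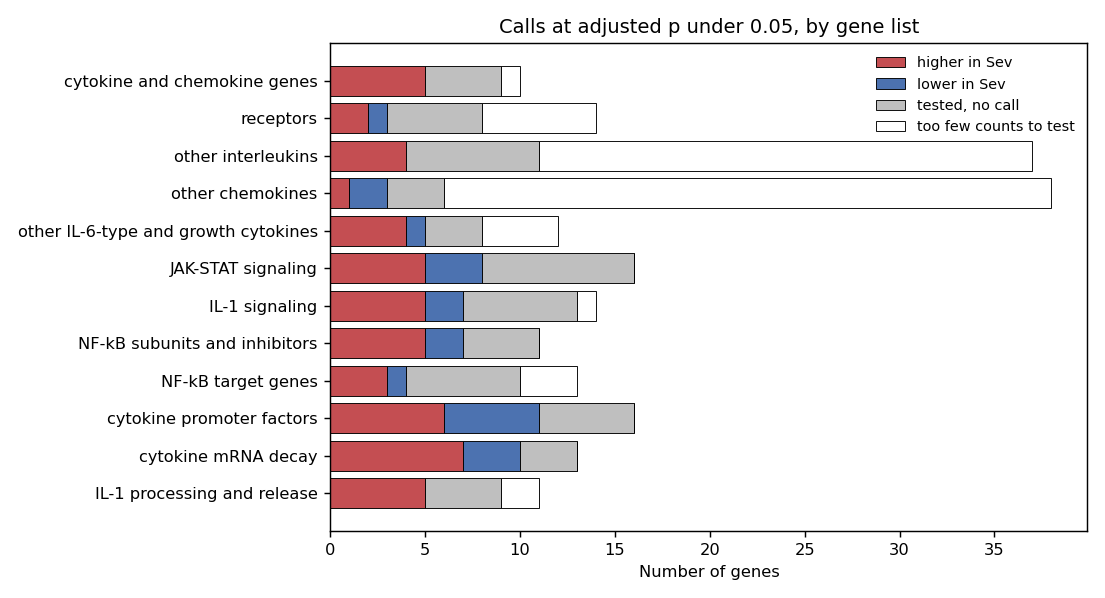
Number of genes per list (horizontal axis) called higher (red) or lower (blue) in Sev at an adjusted p-value under 0.05, tested without a call (grey), or with too few counts to test (white). The cytokine and chemokine genes show 5 higher and 0 lower of 10, and most of the 37 other interleukins and 38 other chemokines are white.

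The markers of cell types were read beside these results, and beside the 22.1% of all tested features called higher and the 21.5% called lower. All 9 glioma and astroglial markers were tested, with 3 higher and 2 lower in Sev. CD44, TNC and EGFR were higher, with log2 fold changes of 0.97, 0.43 and 0.27 (edgeR, adjusted p = 0.000174, 0.0317 and 0.0451). S100B and SOX2 were lower, with log2 fold changes of −1.10 and −0.72 (edgeR, adjusted p = 0.00215 and 0.000367). VIM, at 5485 ± 536 CPM in control cells, and GFAP, at 270 ± 91.4 CPM (SD, n = 3 each), did not pass the test. Of 11 macrophage and microglia markers, 4 were tested and 3 were higher, and their summed level was 7.57 to 9.83 CPM before and 17.2 to 19.7 CPM after Sev. ITGAM, an integrin of myeloid cells, had 2, 3 and 0 counts in control cells and 69, 33 and 130 in Sev-treated cells, and passed the expression filter through the Sev group alone, so that nothing is read from its part in the count. CD14, a co-receptor for bacterial lipopolysaccharide, had 55, 52 and 68 counts in control cells and 221, 196 and 152 in Sev-treated cells (log2 fold change 1.89, edgeR, adjusted p = 0.00046). CSF1R, the receptor of CSF1, had a log2 fold change of 0.72 (edgeR, adjusted p = 0.0201). AIF1 and TYROBP were at 0 in every library, and PTPRC, which marks all leukocytes, had 0 to 12 counts. Of 8 lymphocyte markers 0 were tested, with a summed level of 0.252 to 0.618 CPM before and 0.319 to 0.530 CPM after Sev. Endothelial markers summed to 40.1 to 42.6 CPM before and 53.3 to 66.6 CPM after Sev, with 3 of 5 tested genes higher, and fibroblast markers, nearly all of it COL1A2, to 1142 to 1340 and 835 to 1113 CPM. Of the 3 fibroblast markers tested, COL1A2 was lower and PDGFRB higher, with log2 fold changes of −0.42 and 0.81 (edgeR, adjusted p = 0.0358 and 0.0359). Whether the calls of these markers held with a library left out was not examined. The part of the marker shifts in the results for the cytokine genes was not tested.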

How the data were processed

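Total RNA of U251 cells was depleted of ribosomal RNA and sequenced as strand-specific paired-end libraries. The authors deposited counts per gene, without normalization, and FPKM values per gene. The submitters' processing notes name bcl2fastq 2.19, featureCounts and hg18. The aligner, the annotation and the making of the FPKM values are not given in the sources used here. Identifiers were joined to symbols and to GENCODE 29 (GRCh38), since the tables hold no positions.

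In R 4.3.3, edgeR 4.0.16 served for the filter (filterByExpr), TMM factors and the quasi-likelihood test (glmQLFit, glmQLFTest), 3 libraries against 3, with no covariate. The standard error (SE) came from the size of each log2 change and its F statistic. Alternatives used DESeq2 1.42.0 and limma 3.58.1. Ratios were tested with scipy 1.17.1. Replicates of a group differed beyond sampling noise in 49.0% to 66.5% of 15608 abundant genes, and none was taken as a copy. Same-numbered libraries did not deviate together (r from −0.0072 to 0.027).

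The genes and lists were chosen with earlier results of these data known. Named genes were the 10 members, all receptors and up to 3 genes in each direction per list by smallest p-value. STAT3, CASP1, NFKB1, RELA, NFKBIE, TNIP1, the antisense genes and the named markers fall outside this rule and were chosen after their values were seen. Their results were not examined gene by gene under the other settings. SOD2 had no single identifier and was left out of the NF-kB targets.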

Additional observations from a re-analysis of the deposited data

How the results depend on the processing

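A total of 15 other settings were run, and the calls of CXCL8, CXCL2, CXCL3 and IL11 held in all 15. Between 4 and 5 of the genes were called higher and 0 were called lower in each setting. Past the study's threshold there were 3 or 4, with IL11 lost without control replicate 1 and on both log2(FPKM + 1) fits. That scale understates the change of low genes, and gave 2.56 for CXCL8 and 1.24 for CXCL3, against 3.63 and 2.61. The replicate numbers pair nothing in the labels, and the fit with the replicate number as a block called 4 members higher and 63 list genes, against 5 and 67, with IL6 lost (adjusted p = 0.083, edgeR), 4 in place of 7 NF-kB subunits and inhibitors called and 5228 features higher and 5021 lower in all. In this check 2 of the 3 control libraries correlated best with their own number. Library size only, in place of TMM, moved the median of all features to −0.15 and the calls from 6094 higher and 5920 lower to 4665 and 7502, and IL6 was then at 0.20. The filtered log2(FPKM + 1) and log2(FPKM + 0.1) fits moved it to −0.11 and −0.17, with 3676 higher and 6709 lower and with 3623 and 6530. The unfiltered log2(FPKM + 1) fit left it at −0.0089, with 4542 higher and 6814 lower. Over the 62 named genes tested, signs turned only for IL6R (0.36 without control replicate 3, with a range of −1.03 to 0.36 when libraries were left out in turn), OSMR (0.020 without Sev replicate 3, range −0.12 to 0.020) and IL1R1 (−0.46 without Sev replicate 3, range −0.46 to 0.68), and no gene with a call changed sign. The number of list genes called ran from 52 to 72. With 3 libraries per group, changes such as those of LIF, IL1A and IL1B are not separable from the replicate error, and depth limits IL1R2, OSM and the untested genes.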
